A study of Gallus gallus with 15 samples.

Results

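The baseline transcriptome of the breast muscle was described in the 5 non-supplemented female Korat chickens (KRC), birds A1 to A5, chosen by their treatment label from the 15 birds that were sequenced. KRC is a slow-growing Thai cross. All 5 birds ate a diet with neither β-alanine nor L-histidine added, were sampled at 10 weeks of age and came from different cages, with 1 library per bird. The supplemented birds were not compared. Of the 17475 genes in the deposited table, 15072 had at least 1 count in these birds, 12199 were counted in all 5 of them and 2403 were at 0 in all 5. Each gene was given as a count of sequenced fragments and as FPKM, a count divided by exon length and by the total count of the bird, on which genes of different length can be compared. The total count per bird ranged from 10620229 in bird A4 to 14553374 in bird A2, with a median of 13607972.

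Skeletal muscle shortens when the myosin heads of the thick filament pull on the actin of the thin filament, which troponin and tropomyosin open to myosin when calcium is released. The breast muscle of the chicken is made almost wholly of fast glycolytic fibres, which regenerate ATP mainly by breaking glycogen and glucose down to lactate. Fast and slow fibres use different members of the same protein families. Muscle also holds satellite cells, fibroblasts, vessels, fat cells, nerves and immune cells, and in bulk tissue fewer cells of a type and less RNA per cell cannot be told apart.

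The labels were checked against marker genes. Of 10 genes that define skeletal muscle, 6 were in the table, each with a mean of at least 283 FPKM, and CKM, TTN, NEB and RYR1 were not analysed here. Of 46 genes on chromosome W, which only female birds carry, 29 were counted in every bird, and their summed level was 184 to 256 FPKM. None of the 13 protein-coding genes of the mitochondrial genome was analysed here, so that every share given is a share of the nuclear mRNA in the table. No library repeated another. Across all genes, log2(FPKM + 1) of any 2 birds correlated with an r of 0.964 (A2 with A4) to 0.985 (A1 with A5), a description over genes that share their libraries and lengths.

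A few genes made up most of the mRNA. The 10 most abundant genes held 41.2% ± 2.18 (SD, n = 5) of the summed FPKM, the 30 most abundant 55.2% ± 2.44 and the 100 most abundant 64.7% ± 2.20. The number of genes that held 50% of the FPKM was 17 in bird A1, 19 in A2, 23 in A3, 14 in A4 and 19 in A5, with a mean of 18.4 ± 3.29. Bird A4 needed the fewest genes and bird A3 the most. For 90% of the FPKM, A4 again needed the fewest, 1114, but A2 the most, 1779. At the other end, 8967 genes reached a mean of 1 FPKM, and the 5628 of them between 1 and 10 FPKM held 4.12% of the total. Counted as fragments, without division by gene length, 21 genes (A4) to 50 genes (A2) were needed to reach 50%.

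**Figure D1:**
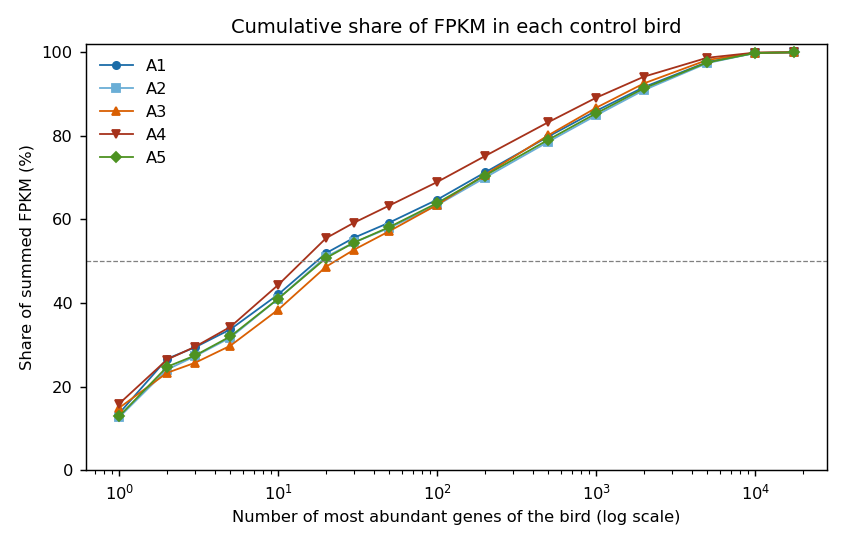
Cumulative share of the summed FPKM (%, y axis) against the number of most abundant genes of the same bird (log x axis), 1 line per control bird. The dashed line marks 50%, which bird A4 reached with 14 genes and bird A3 with 23.

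GAPDH, the glycolytic enzyme that oxidises glyceraldehyde 3-phosphate, was the most abundant mRNA (chromosome 1, 77619440 to 77623355 on build GRCg6a, exonic length 1288 bases). Its level was 69445 FPKM in bird A1, 57347 in A2, 85059 in A3, 92159 in A4 and 68462 in A5, and its share of the FPKM was 13.7% ± 1.75. ACTA1, skeletal α-actin, was next (chromosome 3, 40088178 to 40090517, 1481 bases), with 66660.4, 63768, 47775, 61085 and 62646 FPKM in birds A1 to A5. The ranges of these genes overlapped between birds. Within a bird, GAPDH was above ACTA1 in 4 birds, with ratios of 1.04 in A1, 1.78 in A3, 1.51 in A4 and 1.09 in A5, and below it in A2, with a ratio of 0.899. Together they held 25.0% ± 1.48 of the FPKM.

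The order below them was MYL1 at 13518 ± 2132 FPKM, PKM at 13069.9 ± 2857, the locus LOC107051134 at 11754 ± 1325, TNNC2 at 11027 ± 619, TNNI2 at 10146 ± 2693, TNNC1 at 9554 ± 2048, TNNT3 at 9386 ± 1154 and PGAM1 at 8637 ± 1504 (mean ± SD, n = 5). Neighbours in this order rarely separated. The ranges over birds overlapped for 26 of the 29 neighbouring pairs among the 30 most abundant genes. Still, 25 of these 30 genes were among the first 30 of every bird, and 8 of the first 10 were among the first 10 of every bird. By role, the 30 genes included 8 of glycolysis, 6 of the thin filament, 2 of the fast thick filament and 2 of the Z disc. They also included 2 of glycogen metabolism, 2 of ATP buffering and exchange and 2 of translation. In no list were 5 genes, among them MYLPF-2, a locus of the thick filament light chain MYLPF. Of the 30, 10 had an exonic length under 1000 bases. When genes were ranked by their share of fragments, 23 of the 30 stayed, and MYH1E, with exons of 5872 bases, moved from rank 12 to the third place with 4.40% ± 0.270 of the fragments.

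**Figure D2:**
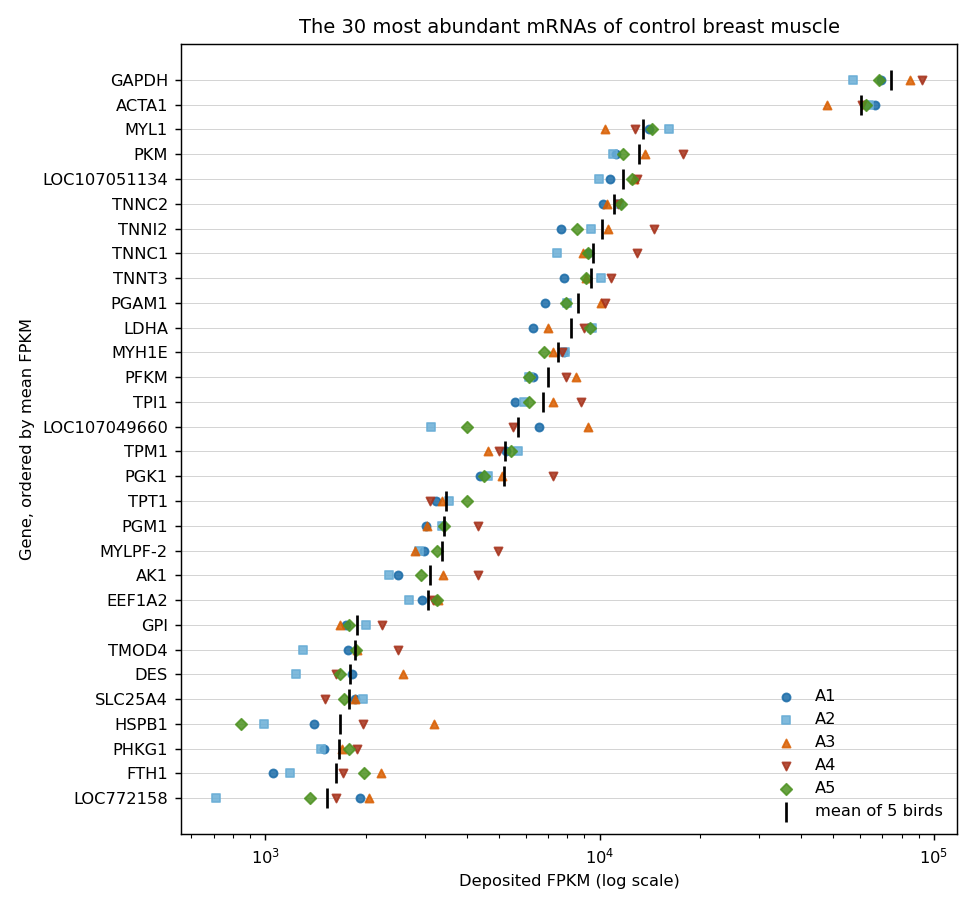
Deposited FPKM (log x axis) of the 30 genes with the highest mean in the control birds (y axis, highest at the top). Symbols are the 5 birds and the black bar is their mean; GAPDH and ACTA1 stand apart from the rest, while the ranges overlap in 26 of 29 neighbouring pairs.

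Genes of the thin filament took 18.4% ± 2.10 of the FPKM over 14 genes in the table, from 14.9% in bird A3 to 20.3% in A2. Of the fast troponin complex, TNNC2, which binds calcium, was 10223, 11441, 10504, 11369.9 and 11596 FPKM in birds A1 to A5. On this deposited scale all birds were close together. After the scaling between birds used below for the spread (normalised FPKM) they were 9760.3, 10012, 10865, 14842 and 10279, with A4 apart. TNNI2, the subunit that inhibits the filament, was 7636, 9415, 10585, 14551 and 8542 FPKM. Bird A4 was highest and A1 lowest. TNNT3, which ties troponin to tropomyosin, was 7793, 10103, 9069, 10839 and 9125 FPKM, and the tropomyosin TPM1 had 5201 ± 410.3. The skeletal actin ACTA1 was 831 times (A2) to 3405 times (A4) as abundant as the cardiac actin ACTC1. TMOD4, which caps the pointed end of the filament, had 1859 ± 423 FPKM.

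Genes of the fast thick filament took 4.45% ± 0.636 of the FPKM over 17 genes, which leave out the shorter locus of the light chain MYLPF given below. That locus, MYLPF-2, took 0.624%. The light chain MYL1 was 14014, 16101, 10347, 12789 and 14338 FPKM in birds A1 to A5, lowest in A3. The heavy chain MYH1E (chromosome 18) was 7799, 7877, 7241, 7733 and 6799 FPKM, close together on the deposited scale. Its normalised FPKM were 7446, 6894, 7489.6, 10094 and 6026, with A4 highest. MYH1E held 97.4% ± 0.423 of the FPKM of 8 related heavy chain genes, followed by MYH1A with 1.21% and MYH1C with 0.938%. These genes are near-identical copies, and since no source says how reads that fit several copies were counted, their split is uncertain. The same holds for the regulatory light chain MYLPF, listed at a locus of 257 bases and at another of 331 bases. The shorter locus had 2986, 2889, 2811, 4959 and 3255 FPKM in birds A1 to A5, with A4 apart, and the longer one 283 ± 141. MYBPH, myosin binding protein H, was 539, 474, 1212, 1154 and 485 FPKM, high in A3 and A4.

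Slow isoforms were scarce, except for troponin C. TNNC1, the troponin C of slow and cardiac muscle, was 9249.9, 7442, 8909.9, 12972 and 9198 FPKM in birds A1 to A5, the eighth highest mean of all genes. The ratio of TNNC2 to TNNC1 was 1.11, 1.54, 1.18, 0.876 and 1.26, so fast and slow troponin C were at like levels in every bird. The other slow partners were at a few counts in most birds. TNNI1, slow troponin I, had 0, 3, 292, 19 and 14 counts in birds A1 to A5, TNNT1, slow troponin T, had 11, 17, 316, 20 and 27, and the slow light chain MYL3 had 0, 0, 231, 8 and 16. Bird A3 was the highest for each. With genes at 0 set to a floor of 3 counts per library, MYL1 was at least 83159 times as abundant as MYL3 in A1 and at least 103179 times in A2, but 805 times in A3. TNNT3 was 11460.2 times as abundant as TNNT1 in A1 and 466 times in A3.

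Glycolysis took 23.2% ± 2.44 of the FPKM over the 17 of 21 listed genes that were in the table. Its share was 22.0%, 20.8%, 24.3%, 26.9% and 22.0% in birds A1 to A5. Bird A4 was highest and A2 lowest. After GAPDH, the pyruvate kinase PKM was 11193, 10945, 13704, 17798 and 11710.2 FPKM, with A4 again highest. The lactate dehydrogenase LDHA was 6299, 9469, 6986, 8949.9 and 9359.8 FPKM, low in A1 and A3. LDHA was 290.5 times (A3) to 839.6 times (A4) as abundant as LDHB, the subunit of oxidative tissue. The phosphofructokinase PFKM had 7000.1 ± 1112 FPKM, the triose phosphate isomerase TPI1 6746 ± 1318, the phosphoglycerate kinase PGK1 5179 ± 1185 and the glucose phosphate isomerase GPI 1885 ± 231. PFKL, known as the liver form of phosphofructokinase, had 7.12 ± 2.58 FPKM. Genes of glycogen metabolism added 1.36% ± 0.112, led by PGM1, which links glycogen to glycolysis, at 3430.5 ± 527 FPKM and by PHKG1, the catalytic subunit of phosphorylase kinase, at 1664 ± 178.

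Genes that buffer or exchange ATP took 1.41% ± 0.142 over 14 genes in the table, without the muscle creatine kinase CKM, which was not analysed here. Adenylate kinase AK1 was 2497, 2339, 3406, 4332 and 2919 FPKM in birds A1 to A5, highest in A4. SLC25A4, which exchanges ATP and ADP across the inner mitochondrial membrane, was 1847, 1964, 1852, 1505 and 1717 FPKM. A4 was lowest by deposited FPKM but highest by normalised FPKM, which were 1763, 1719, 1916, 1965 and 1522. AMP deaminase AMPD1 had 466 ± 146 FPKM, the mitochondrial creatine kinase CKMT2 583 ± 128 and the creatine transporter SLC6A8 767 ± 369. The 49 nuclear genes of the respiratory complexes in the table took 1.36% ± 0.173, led by the ATP synthase subunit ATP5F1B at 609 ± 111 FPKM. Fatty acid uptake and oxidation took 0.238% ± 0.0280 over 15 genes, led by the fatty acid binding protein FABP3 at 633 ± 123 FPKM.

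Cytosolic ribosomal proteins took 5.84% ± 0.847 over 73 genes, with 7.31% in bird A3 and 5.20% to 5.70% in the others. By fragments their share was 2.11%, since these genes are short, with a median exonic length of 612 bases. RPLP0, of the ribosomal stalk, was 936, 721, 1901, 1406 and 959 FPKM in birds A1 to A5. It was highest in A3 and A4. By normalised FPKM, 37 of the 72 genes tested were highest in A3 and 33 in A4, beside 18.2% and 28.9% of all tested genes. The median deviations of the 72 genes from the mean of the birds were 0.48 in A3 and 0.40 in A4 on the log2 scale. With the trend on gene length described below removed, these were 0.07 and −0.05. Translation factors took 2.01% ± 0.215. EEF1A2, the elongation factor 1α of muscle and nerve, was 8.20 times (A5) to 15.1 times (A4) as abundant as EEF1A1, the form of most other tissues. TPT1, translationally controlled tumour protein, was 3237, 3552, 3379, 3103 and 4018 FPKM.

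Z disc and linked genes took 1.80% ± 0.260 over 25 genes. Desmin DES, the intermediate filament that joins Z discs, was 1810.1, 1234, 2588, 1624 and 1676 FPKM in birds A1 to A5, and the small heat shock protein HSPB1 was 1398, 991, 3195, 1952 and 845. Both were highest in A3. TCAP, which caps titin, had 1306 ± 233 FPKM, ACTN2, α-actinin, 1160.03 ± 412 and MYOZ1 851 ± 52.9. Calcium handling took 0.915% ± 0.102 over the 17 of 24 listed genes that were in the table. Among these, the calsequestrin CASQ2, which stores calcium in the sarcoplasmic reticulum, led at 1124 ± 188 FPKM. SLN, sarcolipin, which slows the calcium pump, had 929 ± 269. CASQ2 is known as the cardiac and slow form in mammals. PLN, phospholamban, which acts like sarcolipin in heart and slow muscle, had 0.918 ± 0.573 FPKM.

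Genes of carnosine and β-alanine metabolism took 0.0413% ± 0.0159 over 18 genes, of which 10 were counted often enough to be tested for spread. CARNS1, which joins β-alanine and histidine, was 97.6, 95.2, 99.4, 50.9 and 76.4 FPKM in birds A1 to A5. It was lowest in A4 on this deposited scale, on which the median gene of A4 was low too, as given below. GADL1, a decarboxylase that forms β-alanine from aspartate in mouse, was 80.6, 199, 28.0, 74.8 and 98.0 FPKM, high in A2 and low in A3. CNDP2, a dipeptidase that cleaves carnosine, had 12.1 ± 1.32 FPKM, and CARNMT1, which methylates carnosine to anserine, had 9.31 ± 1.97. Of the 10 genes, 0 spread more than genes of like abundance by the edgeR test described below, and 1 had an unadjusted p under 0.05, beside 1.65% of all tested genes that passed and 8.70% with such a p.

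Regulators were expressed at much lower levels than the proteins of the fibre. Of the myogenic factors, MYOD1 was 89.2, 31.4, 106, 40.2 and 66.6 FPKM in birds A1 to A5, and MYF6 was 18.0, 36.0, 22.7, 38.1 and 30.4. The birds low in MYOD1, A2 and A4, were the highest in MYF6. MSTN, myostatin, which restrains muscle growth, had 46.8 ± 19.3 FPKM. The muscle ubiquitin ligase TRIM63 was 216, 97.9, 228, 47.0 and 65.4 FPKM, and the other ligase of muscle wasting, FBXO32, 45.2, 25.4, 30.5, 16.4 and 7.38. The highest birds were A1 and A3 for both genes, while A4 and A5 were the lowest. By the edgeR test of spread described below, 0 of 18 myogenic regulators and 0 of 23 genes of atrophy and calpain passed, with 2 and 3 at an unadjusted p under 0.05, shares near those of all tested genes (1.65% and 8.70%).

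The spread between birds was measured as the CV (SD divided by mean) of normalised FPKM, which are FPKM divided by a factor that aligns the median gene of the birds. That factor was 1.05, 1.14, 0.967, 0.766 and 1.13 for birds A1 to A5. On the deposited scale the median gene of A4 was therefore lower by 0.38 on the log2 scale than on the normalised one, and those of A2 and A5 were higher by 0.19 and 0.17. Of 11433 genes with a mean count of at least 10, the median CV was 31.0%, with 5% of genes below 11.4% and 5% above 69.5%. Counting noise alone was exceeded by 10294 genes, 90.0% of those tested (edgeR goodness-of-fit test against a dispersion of 0, adjusted p under 0.05). These p-values measure the spread between libraries, in which bird, cage and library preparation cannot be told apart. Among the 30 most abundant genes the median CV was 33.6%. By edgeR 0 of them spread beyond the trend at their abundance, and 1 had an unadjusted p under 0.05. Of all tested genes, 1.65% spread so and 8.70% had such a p, so that 0 of 30 genes is near the first share.

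A part of the spread followed gene length. Among genes with exons of up to 1000 bases, the median deviation of normalised FPKM from the mean of the birds was −0.31, −0.34, 0.41, 0.45 and −0.17 on the log2 scale in birds A1 to A5. Among genes over 8000 bases it was 0.31, 0.32, −0.31, −0.42 and 0.15. Birds A3 and A4 were thus high in short and low in long genes, and A1, A2 and A5 the opposite. This trend was then removed from each library, a correction added after the data were seen. The median CV of all tested genes went from 31.0% to 27.8%. It fell from 32.3% to 14.8% for ribosomal protein genes, from 35.4% to 20.9% for respiratory complex genes and from 32.5% to 22.7% for glycolysis. In other lists it rose, as in the fast thick filament (37.3% to 39.4%), glycogen metabolism (26.8% to 30.1%) and immune markers (43.4% to 49.0%). After this correction 2.09% of the tested genes spread beyond the trend. Without A3 and A4, the median CV of all tested genes over birds A1, A2 and A5 was 17.9%, and 202 genes spread beyond the trend. A3 and A4 were left out after the data were seen because they stood apart. A lower CV thus followed from the choice and is no measure of the length trend. In the paper's quality report, A3 and A4 had the lowest mapping rates and the highest GC content (share of G and C bases) of all libraries. What made the libraries differ in this way was not tested.

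**Figure D3:**
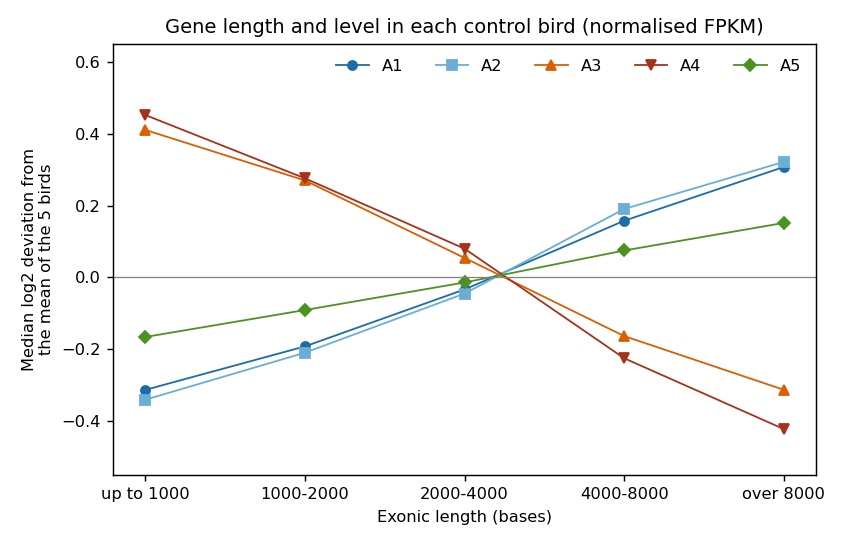
Median log2 deviation of normalised FPKM from the mean of the 5 birds (y axis) for tested genes in 5 classes of exonic length (x axis, bases), 1 line per control bird. Birds A3 and A4 fall from 0.41 and 0.45 in the shortest class to −0.31 and −0.42 in the longest, and the other birds rise.

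Beyond the trend at their abundance, 189 of 11433 genes spread more between birds, 1.65% of those tested (edgeR goodness-of-fit test against the trended dispersion, adjusted p under 0.05), and 995 genes, 8.70%, had an unadjusted p under 0.05. In 96 of the 189, the highest bird was at least 2 times the next on the deposited scale. The 189 were picked for a large spread, and the same count was not made over all tested genes. It is therefore a description and no trait particular to these genes. DESeq2 placed 69 genes far above its own dispersion trend, all of them among the 189. The highest bird was A3 for 59 of the 189 genes, A1 for 37, A4 for 35, A5 for 35 and A2 for 23. Among all tested genes the highest bird was A3 for 18.2%, A1 for 17.0%, A4 for 28.9%, A5 for 13.2% and A2 for 22.7%. Fewer genes were called with any 1 bird left out, 141 without A1, 135 without A2, 131 without A3, 174 without A4 and 103 without A5.

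**Figure D4:**
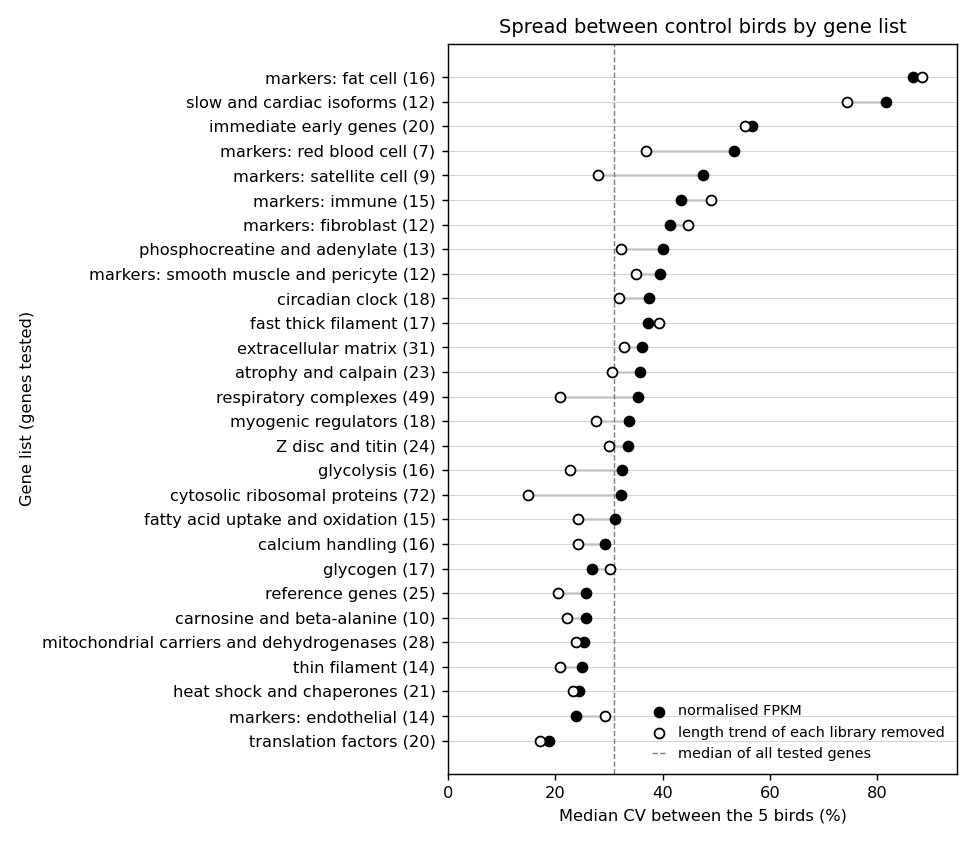
Median CV of normalised FPKM between the 5 control birds (%, x axis) for each gene list with at least 5 tested genes (y axis, number of genes tested in brackets). Filled circles are normalised FPKM and open circles the same after removal of the length trend. The dashed line is the median of all tested genes, 31.0%. Fat cell markers (86.7%) and slow isoforms (81.7%) lie farthest to the right. The slow isoforms include MYL3 and TNNI1, which were tested only through bird A3.

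The list of slow and cardiac isoforms, written with earlier results of these data known, had a median CV of 81.7%. Of its 12 tested members 6 passed, beside 1.65% of all tested genes, which is a description and no test of the list. Those that passed include MYL3 and TNNI1, which were tested only through A3, as given below. MYH7B, a myosin heavy chain of slow and cardiac type, had 31, 15, 1255, 72 and 44 counts in birds A1 to A5, which is 0.39, 0.17, 15.6, 1.14 and 0.53 FPKM. Bird A3 stood far above the rest, with an adjusted p of 2.2e-22 (edgeR), and 0.19 without A3. MYL3, TNNI1, TNNT1 and the regulatory light chain MYL10 were also highest in A3, with 12.9, 21.0, 19.5 and 9.38 FPKM in A3 and at most 1.75 FPKM in any other bird. Without A3, TNNT1 and MYL10 did not pass (edgeR, adjusted p of 1.0 and 0.54). MYL3 had 0, 0, 8 and 16 counts in A1, A2, A4 and A5, and TNNI1 0, 3, 19 and 14. Without A3 both were thus below the filter of a mean count of at least 10 and were tested only through A3. Their adjusted p without A3 (edgeR, 0.020 and 0.026) is therefore no support for a spread among the other birds. MYBPC1, slow myosin binding protein C, was high in 3 birds, with 6.74, 1.05, 14.0, 1.27 and 14.3 FPKM. MB, myoglobin, the oxygen store of oxidative fibres, named after its values were seen, was 1.78, 0.52, 11.0, 5.94 and 1.07 FPKM. Of the fast proteins, MYL1 and ACTA1 were lowest in A3 on both scales, but TNNC2, TNNI2, TNNT3 and MYH1E were not. By normalised FPKM, A3 was next after A4, the highest bird, in each of the latter. The median deviation of A3 on the log2 scale was −0.01 for the thin filament list and −0.16 for the fast thick filament list. The median CV was 25.0% for the thin filament list, with 2 of 14 genes past the test, and 37.3% for the fast thick filament list, with 1 of 17.

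The list of fat cell markers, also written with earlier results of these data known, had a median CV of 86.7%. Of its 16 tested members 6 passed, beside 1.65% of all tested genes, which is a description and no test of the list. The lipid droplet protein PLIN1 was 0.21, 0.64, 5.84, 1.26 and 46.0 FPKM in birds A1 to A5, and the fatty acid carrier FABP4 was 3.13, 13.5, 30.4, 8.34 and 239.6 FPKM. THRSP, a regulator of fat synthesis, was 0.18, 0.51, 3.83, 1.99 and 42.3 FPKM, the retinol carrier RBP7 0.35, 0.43, 2.62, 1.46 and 43.4, and CIDEC, which fuses lipid droplets, 0, 0.16, 2.34, 0.64 and 14.5. In each of these A5 was highest and A3 next. The whole list of 18 genes took 0.121% of the FPKM in A5 and 0.0352% to 0.0416% in the other birds. ADIPOQ, adiponectin, did not follow, with 36.9, 39.6, 29.4, 36.0 and 39.7 FPKM, and DGAT2, the enzyme that completes triglycerides, was highest in A4 and lowest in A5, with 8.20, 8.63, 6.29, 17.5 and 3.74 FPKM. Without A5, PLIN1 and CIDEC still passed (edgeR, adjusted p of 0.0010 and 0.037), while FABP4 (0.19), THRSP (0.16), RBP7 (0.63) and DGAT2 (0.48) did not. DGAT2 was also lost without A4 (1.0).

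Immediate early genes respond within minutes to stretch, injury and stress signals. Their list, written with earlier results of these data known, had a median CV of 56.7%. Of its 20 tested members 5 passed, beside 1.65% of all tested genes, which is a description and no test of the list. GADD45B, a stress sensor, was 237, 98.0, 499, 116 and 32.1 FPKM in birds A1 to A5. SOCS3, a brake on cytokine signals, was 13.4, 2.50, 35.5, 1.61 and 6.66 FPKM, and the transcription factor EGR1 17.9, 14.4, 30.9, 2.20 and 13.7. Bird A3 was highest in these, and in 14 of the 20 genes, beside 18.2% of all tested genes, with a median deviation of 0.78 on the log2 scale. ATF3 differed, with 27.6, 9.01, 6.18, 7.57 and 4.22 FPKM, highest in A1. Calls were lost without the highest bird for EGR1 (adjusted p of 0.18 without A3, edgeR), KLF4 (0.83 without A3) and ATF3 (1.0 without A1), and without the lowest for GADD45B (0.18 without A5) and EGR1 (0.53 without A4). BTG2 and JUN, other members at high level, had 275 ± 80.9 and 100.1 ± 24.8 FPKM and did not pass.

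By edgeR, 1 of 24 tested Z disc genes passed, as did 1 of 16 of calcium handling and 2 of 28 mitochondrial carriers and dehydrogenases. Of the clock genes 2 of 18 passed and of the respiratory complexes 1 of 49, beside 1.65% of all tested genes. XIRP1, an actin-binding protein of the Z disc and muscle attachment, was 109.8, 12.2, 42.7, 17.2 and 12.9 FPKM in birds A1 to A5, highest in A1, and was not called without A1 (edgeR, adjusted p of 1.1e-04, and 0.31 without A1). KLHL40, which stabilises thin filament proteins, was 88.5, 18.2, 22.2, 26.2 and 17.5 FPKM, again with A1 alone high (0.019, and 1.0 without A1). TRDN, triadin, which anchors calsequestrin beside the calcium release channel, was 122, 158, 46.8, 15.6 and 109.6 FPKM. It was low in A3 and A4, the birds low in long genes, and its call at 0.047 was lost whichever bird was left out (0.068 to 0.87), but held with the length trend removed (4.7e-04). PDK4, the kinase that shuts off pyruvate dehydrogenase, was 178, 133, 99.6, 29.0 and 23.3 FPKM, low in A4 and A5 (0.012, and 0.11 without A1 and 0.60 without A5). Of the clock genes, NR1D1 was highest in A3 with 32.4, 21.9, 97.0, 25.4 and 24.3 FPKM (0.026, and 1.0 without A3). NDUFB3, of respiratory complex I, was 29.5, 29.3, 119.8, 47.1 and 36.9 FPKM, and its call (0.035) was lost without A3 (0.92) and with the length trend removed (0.39).

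Markers of other cell types took small shares. The satellite cell list, which holds desmin (DES), also a gene of the fibre, took the most, 0.281% (A2) to 0.491% (A3), and the red blood cell list took 0.0219% (A5) to 0.0372% (A2). The fibroblast list took 0.0234% (A4) to 0.102% (A5) of the FPKM, the immune list 0.0254% (A2) to 0.0922% (A1), the endothelial list 0.0193% to 0.0255%, the smooth muscle list 0.0204% to 0.0293% and the Schwann cell list 0.00334% to 0.00520%. The bird with the highest fat share, A5, thus had the highest fibroblast share too. Extracellular matrix genes took 0.215% ± 0.0674. Of 31 tested, 14 were highest in A1 and 13 in A5 on the normalised scale, beside 17.0% and 13.2% of all tested genes. Their median exonic length was 5985.5 bases, and long genes were high in A1, A2 and A5, as given above. The median deviation of the list was 0.39 in A1 and 0.39 in A5 on the log2 scale. With the length trend removed it was 0.26 and 0.34. The collagen COL3A1 was 120.1, 97.7, 116, 48.9 and 208 FPKM, lowest in A4 and highest in A5, and did not pass (edgeR, adjusted p of 1.0). POSTN, periostin, a matrix protein of fibroblasts, was 7.39, 6.60, 8.28, 0.94 and 22.0 FPKM and passed (3.5e-04), but not without A4 (0.22) or without A5 (0.18). The part of these other cells in the spread of any gene was not tested.

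Genes of the major histocompatibility complex (MHC), which presents peptides to T cells, also spread. On chromosome 16, which carries the chicken MHC, 8 of 62 tested genes passed, 12.9% against 1.65% of all genes, a chromosome singled out after its values were seen. BLB2, a class II β chain, was 117, 4.79, 17.4, 18.5 and 97.5 FPKM in birds A1 to A5 (chromosome 16, 2572332 to 2573868). BF1, a class I chain, was 326, 34.5, 70.3, 86.5 and 388 FPKM. For both genes A1 and A5 were high and A2 was lowest. BLB2 passed with every bird left out in turn (edgeR, adjusted p of 6.0e-09), and BF1 was lost without A2 (2.7e-04, and 0.11 without A2). The class I-like locus MHCIA9 was high in other birds, with 0.82, 0.60, 9.78, 0.85 and 10.6 FPKM, high in A3 and A5. CD74, the class II invariant chain, which lies on chromosome 13, was 292, 95.7, 229, 190.5 and 295 FPKM and did not pass (0.83). These genes are multicopy and differ between haplotypes, and how many reads of other haplotypes aligned to the reference was not tested.

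**Figure D5:**
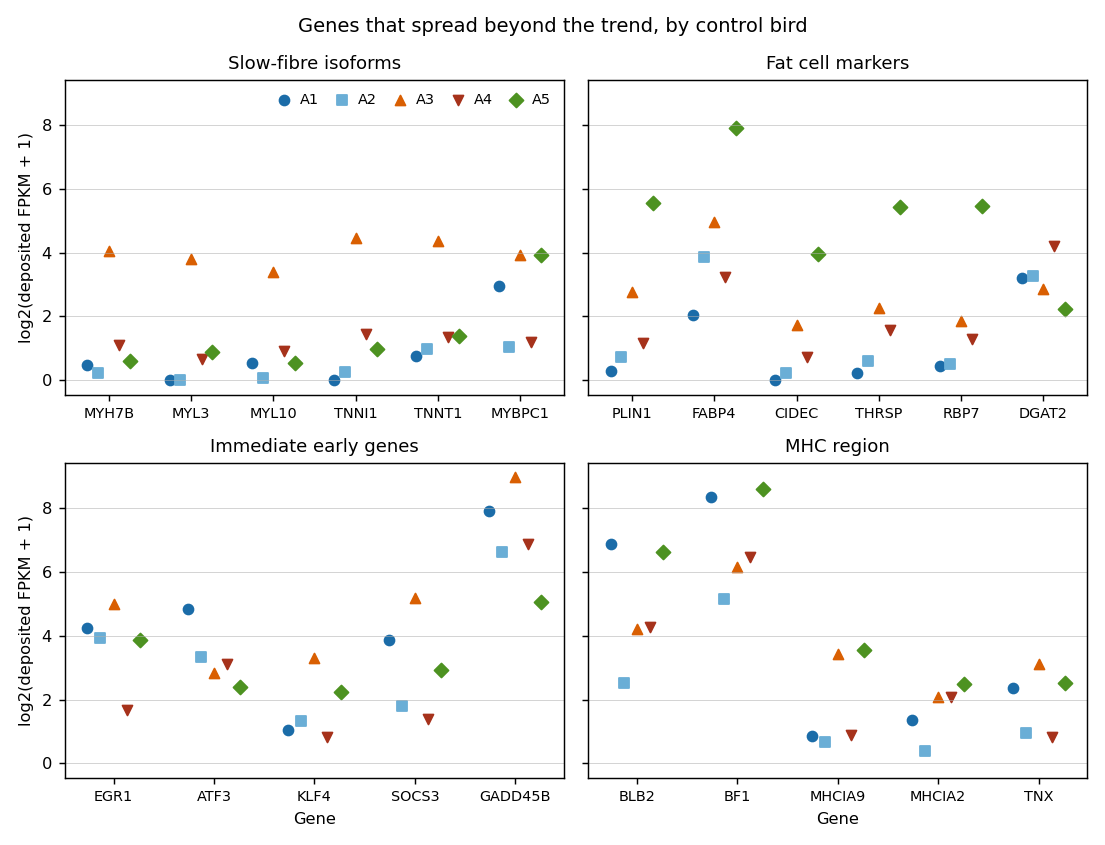
Levels of 22 genes that spread beyond the trend, as log2(deposited FPKM + 1) (y axis), with 1 symbol per control bird, in 4 groups (slow isoforms, fat cell markers, immediate early genes and the MHC region). Bird A3 stands apart in the slow isoforms other than MYBPC1 (MYH7B at 15.6 FPKM). Bird A5 stands apart in 5 of 6 fat cell markers (PLIN1 at 46.0 FPKM), and A1 and A5 in BLB2 and BF1.

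Some loci were nearly absent in 1 to 4 of the 5 birds, and were chosen after their values were seen. LOC107052719 (chromosome 1, 32724391 to 32727006) had 9076, 2, 9049, 3694 and 6226 counts in birds A1 to A5, and LOC107052718, which overlaps its end (32726924 to 32731659), had 11534, 9, 10226, 5729 and 7053. Both were at a few counts in A2 alone. LOC770705 (chromosome 1, 210013 to 214696) had 6725, 17, 4577, 3568 and 73 counts, low in A2 and A5, and passed with every bird left out in turn (edgeR, adjusted p of 8.6e-26). SPP1, osteopontin, a secreted protein of bone and macrophages, had 0, 0, 358, 2 and 0 counts, present almost only in A3. Without A3 it was below the filter of a mean count of at least 10, so it was tested only through A3. Its adjusted p (edgeR, 1.8e-26, and 0.72 without A3) is therefore no support beyond these counts. Whether the LOC loci are missing or differ in sequence in the birds where they were low was not tested. Why SPP1 was counted almost only in A3 was not tested either.

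The largest CVs among genes with a mean of at least 5 FPKM belonged, after the fat cell markers RBP7, THRSP, PLIN1 and FABP4, to the histone gene HIST1H4D (136%), EMP1 (132%), KCNJ14L (127%), SOCS3 (121%) and MUSTN1 (115%). MUSTN1, a small nuclear protein of muscle and bone, was 30.1, 14.4, 116, 16.8 and 16.7 FPKM in birds A1 to A5, high in A3 alone, and was lost without A3 (edgeR, adjusted p of 6.4e-05, and 1.0 without A3). GSTZ1, an enzyme of tyrosine breakdown, was 3.65, 2.04, 1.84, 20.1 and 16.2 FPKM, high in A4 and A5, and passed with every bird left out in turn.

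The lowest CV among genes with a mean of at least 5 FPKM was that of SEC13, of the COPII vesicle coat and the nuclear pore, with normalised FPKM of 35.6, 34.3, 34.5, 34.7 and 35.3 and a CV of 1.58%. On the deposited scale its CV was 15.5%. MSI2 (2.50%) and HNRNPA2B1 (2.87%), both RNA-binding proteins, came next. With the length trend removed the CVs were 11.9% for SEC13, 17.1% for MSI2 and 7.30% for HNRNPA2B1. These genes were picked as the lowest values on the normalised scale, which are given as a description of these birds.

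Of 25 genes often used as references for normalisation, 0 passed the edgeR test and 0 had an unadjusted p under 0.05, beside 1.65% and 8.70% of all tested genes. Their median CV was 25.7%. The range was wide, from 9.52% for HPRT1, of purine salvage, 9.85% for the initiation factor EIF4A2, 12.5% for β-actin ACTB and 14.0% for TBP to 36.1% for GAPDH, 43.1% for PGK1, 45.3% for RPL13 and 49.99% for RPLP0. ACTB was 279, 314, 230.4, 207 and 376 FPKM in birds A1 to A5, and 266, 275, 238, 270.4 and 333 by normalised FPKM. A5 was highest on both scales, while the lowest was A4 on the deposited and A3 on the normalised scale. With the length trend removed the median of the 25 genes was 20.6%, and the order changed. HPRT1 then had a CV of 21.6%, EIF4A2 11.4%, ACTB 21.1% and TBP 8.86%. GAPDH had 20.6%, PGK1 29.4%, RPL13 19.3% and RPLP0 29.9%. HPRT1 was thus above GAPDH and RPL13, so the order of these genes depends on the scale used.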

How the data were processed

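The deposited table held, for each bird, a count of fragments per gene, and the FPKM that the authors computed from these counts, the exonic length and the column total. Recomputing FPKM from the counts differed from the deposited values by at most 0.005, the rounding of the file. The submitters' processing notes name cutadapt 1.9.1, HISAT2 2.0.1, HTSeq 0.6.1, DESeq2 and build GRCg6a. How strand and reads that fit several genes were treated, and which of the named RNA isolation methods was used, were not stated. Genes of families and overlapping loci are therefore uncertain.

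Levels are deposited FPKM, and a share is a percent of the FPKM sum of a bird. The share of a list holds only those members that were in the table. Spread is the CV of FPKM divided by relative log expression factors of the counts, over genes with a mean count of at least 10. Each gene was tested with edgeR 4.0.16 (goodness of fit of an intercept-only model to the trended dispersion, and to a dispersion of 0, Benjamini-Hochberg adjusted p under 0.05). DESeq2 1.42.0, TMM and total scaling, other filters, leaving out each bird, a lowess length correction (span 0.5) and leaving out A3 and A4 were alternatives, the last pair added after seeing the data. Fits with birds left out kept the genes that passed the filter on all 5 birds. On simulated data of 11433 genes the test recovered 23% to 30% of genes with a 4-fold dispersion and 82% to 88% with 16-fold over 5 random draws. There, all other genes lay exactly on the dispersion trend and the libraries had no length trend. The rates in the real libraries may therefore differ. The depth limits low genes, and the floor for a gene at 0 is 3 counts, which covers counting error only.

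Genes were named by rank of mean FPKM, by largest or smallest CV, as leading members of lists and as fast and slow counterparts; other members past the test were named after their values were seen. The members and lists were chosen with earlier results of these data known. Birds were grouped by their treatment label, and the supplemented birds were left out. No genome sequence was used.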

Additional observations from a re-analysis of the deposited data

Results flagged for a closer look

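In 26 of 138 sets of 5 values (106 genes, the gene lists and library measures), 1 bird lay far from the other 4 by Dixon's criterion, whose critical value for 5 samples is 0.71. Chance flags about 1 in 20 such groups, and several of these genes were named because they spread, so the number is no measure of how often birds stood apart.

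Bird A3 was far above the rest in genes of slow fibres, with 20.98 FPKM of TNNI1, 19.46 of TNNT1, 12.85 of MYL3, 15.55 of MYH7B and 9.38 of MYL10. It was also far above in PLN (1.91 FPKM), in the clock gene NR1D1 (97.03), in NDUFB3 (119.8), in MUSTN1 (116.26), in SPP1 (22.86) and in the share of ribosomal protein genes (7.31%).

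Bird A5 was far above the rest in fat cell genes, with 45.99 FPKM of PLIN1, 239.59 of FABP4, 42.32 of THRSP, 43.36 of RBP7 and 14.5 of CIDEC, and in the share of the whole fat cell list (0.121%).

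Bird A4 had a total count far below the others (10620229) and stood highest in PGK1 (7242.09 FPKM), AMPD1 (723.6), the shorter MYLPF locus MYLPF-2 (4958.6) and HIST1H4D (28.21). Bird A1 stood highest in ATF3 (27.57 FPKM), KLHL40 (88.45) and KCNJ14L (21.99). Bird A2 was far below the others in the myosin heavy chain MYH1C (16.73 FPKM), which shares sequence with its neighbours.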

How the results depend on the processing

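No paired analysis was possible because only 1 group of birds was described. By share of fragments rather than FPKM, the 10 most abundant genes held 36.3%, 41.8 genes held 50%, and thin filament, glycolysis and ribosomal protein genes took 14.3%, 19.9% and 2.11%. This follows from leaving out the division by length. At a mean of at least 5 or 10 FPKM, 5008 and 3339 genes were detected. The 189 genes that spread beyond the trend were 103 (without A5) to 174 with 1 bird left out, 202 without A3 and A4, and 69 by DESeq2. The median CV was 37.8% with any gene of at least 1 count, 26.0% (without A4) to 32.7% with 1 bird left out, and 17.9% without A3 and A4, an alternative chosen after the data were seen. The lowest correlation between birds was 0.938 among genes with a mean of at least 1 FPKM, and 0.964 to 0.969 with 1 bird left out. Of 636 tests of the 106 named genes under other settings, 587 kept their side of the threshold, 44 lost it and 5 gained it. Genes that were not called had no call to lose. The 44 losses therefore fell on called genes only, and the 587 do not measure how stable the calls were. Depth limits the slow isoforms MYL3, TNNI1, TNNT1 and MYH7B, which had few counts outside A3.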
